A study of Mus musculus with 2 samples.

Results

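The genes described here are 10 members of the WNT signalling pathway in the newborn mouse ureter, of 32589 genes in the deposited count tables. They were chosen by name, with earlier results of these data known, to set secreted WNT ligands of the epithelium beside genes of the WNT response in the surrounding mesenchyme. Wnt4, Wnt5a and Wnt7b encode ligands. Rspo3 encodes a secreted enhancer of WNT signals and Lgr5 a receptor for R-spondins. Lef1, Tcf7 and Tcf7l2 encode DNA-binding factors, and Axin2 and Nkd1 encode inhibitors that act as negative feedback.

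Single nuclei were sequenced from ureters of mice at postnatal day 0. The DNp63cKO pool held ureters of 14 mice of genotype Pax2-cre/+;DNp63fl/fl;R26mTmG/+, in which the ΔN isoform of p63 (gene Trp63) can be deleted where the Pax2 driver has been active, and which also carry a fluorescent cre reporter. The control pool held ureters of 13 mice whose genotype is labelled wt, so driver and reporter may differ between the pools along with the floxed alleles. Each pool gave 1 library. The ureter epithelium descends from the nephric duct, where Pax2 is expressed, and the mesenchymal layers have another origin. The mice of a pool cannot be told apart, so every difference below lies between 2 libraries, has no replicate check and has no test.

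WNT ligands are lipid-modified proteins that act over short distances on Frizzled receptors with LRP co-receptors. In the canonical branch they stabilise β-catenin, which joins TCF/LEF factors on DNA and turns on targets, among them Axin2, Nkd1 and Lef1. In the developing mouse ureter, epithelial WNT signals act together with SHH on the adjacent mesenchyme, which forms smooth muscle and fibroblasts.

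The DNp63cKO library held 5528 nuclei and 9859451 unique molecular identifiers (UMIs, each standing for 1 captured RNA molecule), and the control library 9062 nuclei and 16063644 UMIs. After filtering, 5188 DNp63cKO and 8438 control nuclei were analysed. The libraries shared 58 cell barcodes. Clustering without any WNT gene gave 19 clusters, named from marker genes. The epithelial lining, here the urothelium-like nuclei, gave 43.2% of DNp63cKO and 61.1% of control nuclei, smooth muscle-like nuclei 28.7% and 22.5%, and fibroblast-like nuclei 18.3% and 10.3%. All 22 urothelial markers reached 50 CPM in the urothelium-like class of both libraries, and all 14 smooth muscle and 14 fibroblast markers did so in their own classes. In urothelium-like nuclei the targeted gene Trp63 had 140 CPM for DNp63cKO and 198 CPM for control. Its counts join all isoforms and exons, so UMIs outside the deleted part check nothing.

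Within the urothelium-like class the libraries filled different clusters. Cluster 5, led by Spp1, Msln and Car2, held 1045 DNp63cKO and 80 control nuclei, whereas cluster 1, led by Lypd3 and Shh, held 247 and 1556, and cluster 2, led by Krt5 and Krt14, held 357 and 1312. A cluster drawn mostly from 1 library may be that library and not a cell type. Cluster 5 had 21 of the 22 urothelial markers at 50 CPM, and cluster 1 had all 22. Among the 10 genes that led it over the rest of the nuclei, cluster 5 had 0 urothelial markers. It had 1 each of 2 other types there (Msln, listed for mesothelium, and Scnn1b, listed for collecting duct). Against nuclei of other classes, its 10 leading genes held 3 urothelial markers (Psca, Upk3a and Cdh1) and again Msln. Cluster 1 had 0 urothelial markers by both comparisons, and 1 of another type (Aqp3, listed for collecting duct) against nuclei of other classes. Wnt4, Wnt5a and Wnt7b are therefore compared cluster by cluster in the epithelium. Pooled epithelial values, the only ones given for other genes, describe the mix of clusters in each library.

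Levels are given as CPM, the UMIs of a gene divided by all UMIs of the class and scaled to a total of 1e6. Ratios are DNp63cKO over control on the log2(CPM + 5) scale, which understates the change of low genes. A gene with 20 or more UMIs over both libraries was counted, and it was called higher or lower at a log2 ratio of 0.5 or more in size. Intervals are exact at 95%, cover counting error only and leave out the added 5 CPM. Gene levels are compared between libraries and classes, not between genes.

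Of the 10 genes, 9 were counted in urothelium-like nuclei. Wnt5a was called lower in DNp63cKO and none was called higher, against 5.16% of all counted genes called higher and 4.15% called lower. In smooth muscle-like nuclei 9 were counted, with Rspo3 and Axin2 higher and Wnt5a lower (background 4.58% higher and 4.58% lower). In fibroblast-like nuclei 6 were counted, with Wnt5a lower and none higher (8.68% and 6.93%). The median log2 ratio of the counted genes was 0.11 in urothelium-like nuclei, 0.21 in smooth muscle-like nuclei and -0.05 in fibroblast-like nuclei, beside 0.01 for all counted genes in each of these classes.

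**Figure D1:**
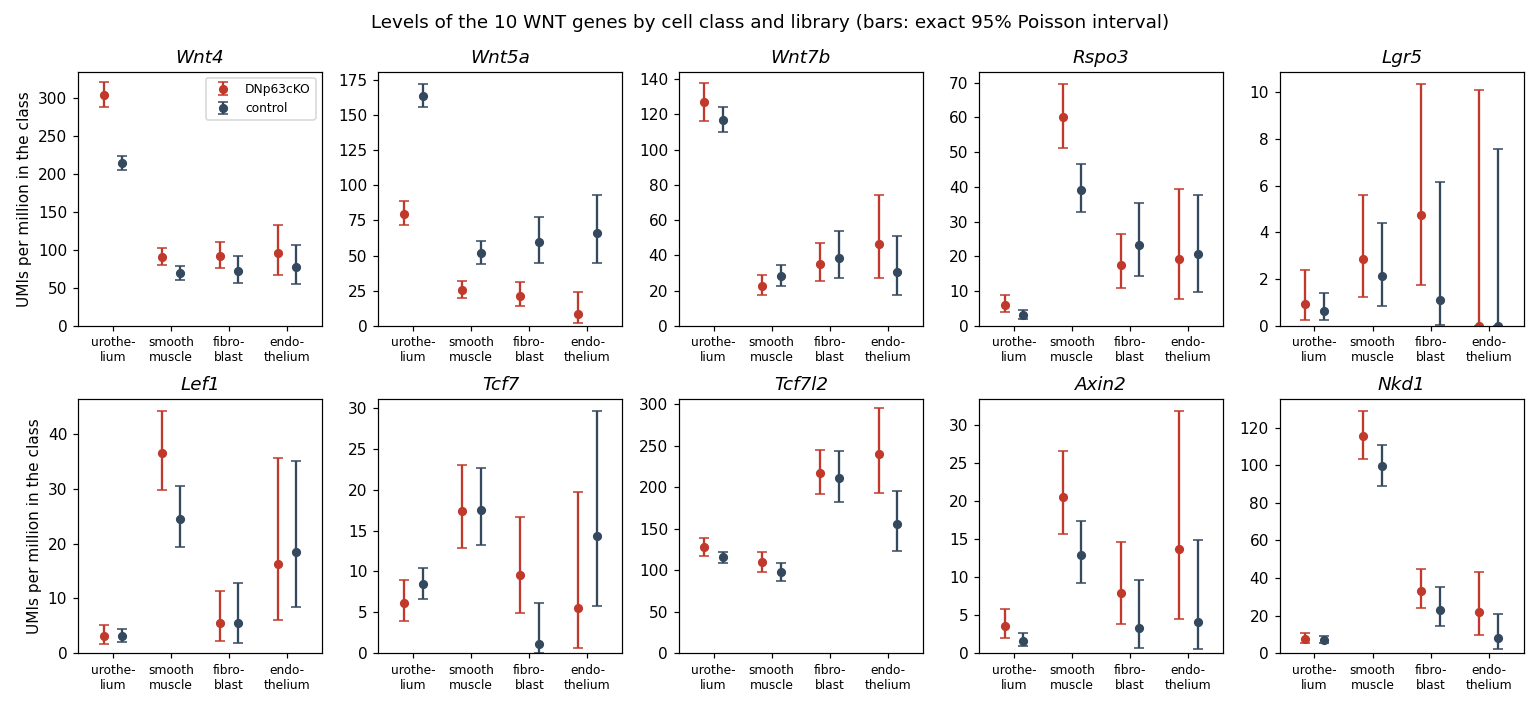
Level of each gene (CPM in the class; each panel has its own axis) in 4 classes, with DNp63cKO in red left of control in dark blue; bars are exact 95% Poisson intervals. Wnt4, Wnt5a and Wnt7b were highest in urothelium-like nuclei, and Rspo3, Lef1, Axin2 and Nkd1 were lowest there, with Rspo3 and Nkd1 highest in smooth muscle-like nuclei.

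The ligands were found mainly in the epithelium. Wnt4 (ENSMUSG00000036856; mm10 chromosome 4, 137277489 to 137299726, plus strand), a ligand known for its part in kidney tubule formation, had 74.0% of its DNp63cKO UMIs and 85.4% of its control UMIs in urothelium-like nuclei, which held 47.0% and 65.8% of all UMIs. Its level was 305 CPM in DNp63cKO (interval 288 to 322) and 214 CPM in control (205 to 224). The log2 ratio of 0.496 (0.40 to 0.61) lay just under the fold used. This difference rested on cluster 5, which held 882 of the 1300 Wnt4 UMIs of the DNp63cKO class and 32 of the 2016 of the control class. Without cluster 5 the ratio was 0.02.

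Counting the 6 urothelium-like clusters that held 50 or more nuclei of each library, Wnt4 was higher in DNp63cKO in 4 and lower in 2. It had 377 CPM in DNp63cKO, against 229 CPM in control nuclei of cluster 5 (882 and 32 UMIs, log2 0.71). In the Krt5 and Krt14 cluster 2 the order was the opposite, at 207 CPM in DNp63cKO, against 273 CPM in control (131 and 627 UMIs, log2 -0.39). In the dividing cluster 6, led by Mki67 and Top2a, Wnt4 was at 205 and 226 CPM, with intervals that overlap.

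Wnt5a (ENSMUSG00000021994; chromosome 14, 28504750 to 28527448, plus strand), a ligand best known for signalling without β-catenin, was the member with the largest difference in size in the urothelium-like class. It stood at 79.9 CPM in DNp63cKO (341 UMIs; 71.6 to 88.9) and 164 CPM in control (1540 UMIs; 156 to 172), a log2 ratio of -0.99 (-1.21 to -0.87). The DNp63cKO level was thus 0.488 times the control level.

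Wnt5a was lower in DNp63cKO in each of the 6 clusters, with log2 ratios between -1.45 and -0.61. In cluster 1 it had 75.6 CPM in DNp63cKO, against 216 CPM in control (18 and 398 UMIs). Cluster 2 had 134 and 213 CPM (85 and 490 UMIs), and cluster 5 had 68.0 and 143 CPM (159 and 20 UMIs). The smallest difference was in the dividing cluster 6, at 86.3 and 134 CPM. In clusters 8 and 9, with 10 and 13 DNp63cKO UMIs, the counting intervals of the levels overlapped. Without cluster 5 the ratio of the pooled class was -0.77, and it stayed past the fold used under each of 12 alternatives, between -1.49 and -0.77.

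Wnt7b (ENSMUSG00000022382; chromosome 15, 85535437 to 85582473, minus strand), a ligand of the β-catenin branch made by duct epithelia of the mouse kidney, did not differ beyond counting error. It had 127 CPM in DNp63cKO, against 117 CPM in control urothelium-like nuclei (542 and 1099 UMIs), a log2 ratio of 0.11 (-0.03 to 0.27). By cluster the ratio ran from -0.53 to 0.51, higher in 3 of 6 clusters and lower in 3. Cluster 8, led by Cdh20 and Htr4, had the lowest level in both libraries, at 46.2 CPM in DNp63cKO, against 68.9 CPM in control.

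**Figure D2:**
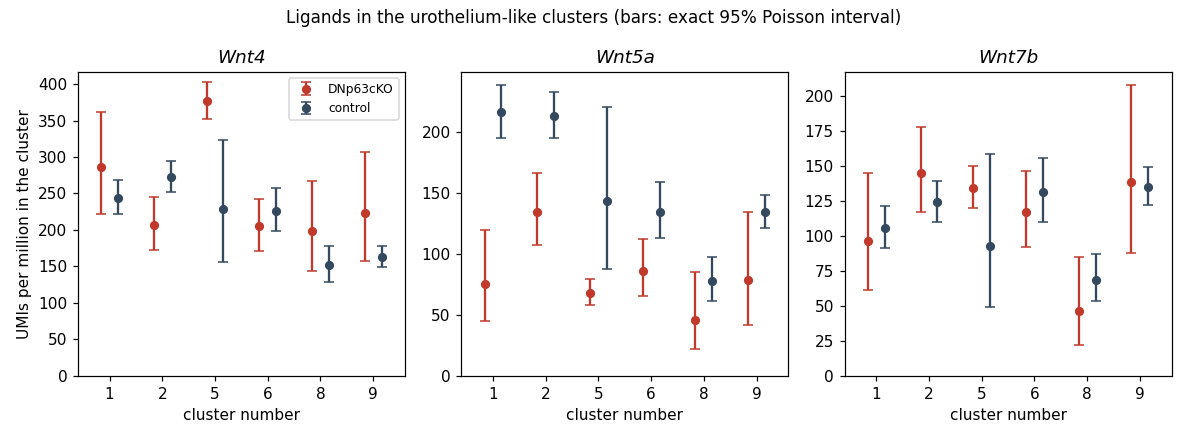
Level of Wnt4, Wnt5a and Wnt7b (CPM in the cluster) in the 6 urothelium-like clusters with 50 or more nuclei of each library, DNp63cKO in red left of control in dark blue, with exact 95% Poisson intervals. Wnt5a was lower in DNp63cKO in all 6 clusters, Wnt4 was 377 CPM in DNp63cKO nuclei of cluster 5 and lower in DNp63cKO in cluster 2, and Wnt7b showed no common direction.

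Outside the epithelium the ligands were found at lower levels, and those of Wnt4 and Wnt5a differed between the libraries in the same direction as in the epithelium. In smooth muscle-like nuclei Wnt4 had 90.5 CPM in DNp63cKO, against 69.6 CPM in control. Wnt5a had 25.2 and 51.8 CPM there (71 and 169 UMIs, log2 -0.91), 21.4 and 59.5 CPM in fibroblast-like nuclei (27 and 54 UMIs, log2 -1.29) and 8.19 and 65.7 CPM in endothelium-like nuclei (3 and 32 UMIs, log2 -2.42). All of these were called lower. Wnt7b had 22.7 and 28.2 CPM in smooth muscle-like nuclei and 34.9 and 38.6 CPM in fibroblast-like nuclei, with no call.

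Free RNA from broken cells can give such UMIs in any class, and its part in the ligand UMIs outside the epithelium was not tested. The levels of 4 uroplakins, membrane proteins made by the urothelium, stand beside them. Their summed level in smooth muscle-like nuclei was 21.3% of that in urothelium-like nuclei in DNp63cKO and 17.6% in control, and in fibroblast-like nuclei 24.3% and 20.3%. Shh, another epithelial signal, stood at 19.96% and 35.8% of its urothelial level in smooth muscle-like nuclei. On the same scale Wnt5a stood at 31.5% and 31.6%, Wnt4 at 29.7% and 32.4% and Wnt7b at 17.9% and 24.1%. In control the 3 ligands thus lay between the uroplakins and Shh, and in DNp63cKO Wnt4 and Wnt5a lay above both. Shh was itself called lower in DNp63cKO urothelium-like nuclei, at 51.6 CPM, against 138 CPM in control. Its smooth muscle-like percentages rest on 29 DNp63cKO and 161 control UMIs. With the free RNA estimated from the uroplakins alone and subtracted, the smooth muscle-like log2 ratio was -0.99 for Wnt5a and -0.21 for Wnt4, which turned the sign of Wnt4.

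**Figure D3:**
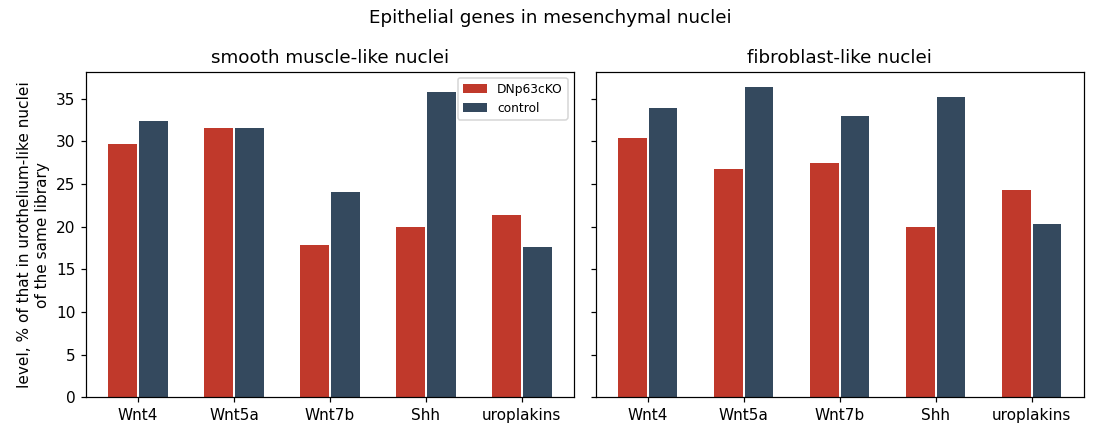
Level of the 3 ligands, of Shh and of 4 summed uroplakins in smooth muscle-like and fibroblast-like nuclei as a percentage of the level in urothelium-like nuclei of the same library, DNp63cKO in red left of control in dark blue. The bars run from 17.6% to 36.3%, and Wnt5a in smooth muscle-like nuclei is at 31.5% in DNp63cKO and 31.6% in control.

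The direction of Wnt5a was the same at equal depth. With each nucleus thinned to 700 UMIs, a Wnt5a UMI was seen in 3.71% of 2077 DNp63cKO urothelium-like nuclei (2.94 to 4.61%) and in 11.6% of 4275 control ones (10.7 to 12.6%). Unthinned, the shares were 11.9% and 20.9%, at median depths of 1475 and 1239 UMIs. Endothelium-like nuclei, at median depths of 971.5 and 894 UMIs, had a Wnt5a UMI in 0.980% of 204 and 5.17% of 232 thinned nuclei.

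Wnt4 was seen in 18.1% of thinned DNp63cKO urothelium-like nuclei (16.5 to 19.8%) and 12.9% of control ones (11.9 to 13.9%). Unthinned, the shares were 36.5% and 26.7%. Endothelium-like nuclei, taken as the class that should lack it, had 6.37% and 7.33%, and smooth muscle-like nuclei had 6.70% and 4.78%, near that background. Wnt7b was seen in 7.46% and 7.16% of urothelium-like nuclei, against 1.96% and 2.16% of endothelium-like and 2.04% and 1.84% of smooth muscle-like nuclei. Thinning left out 162 DNp63cKO and 882 control urothelium-like nuclei.

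Rspo3 (ENSMUSG00000019880; chromosome 10, 29452416 to 29535867, minus strand) encodes an R-spondin, which holds Frizzled receptors at the cell surface by blocking their removal. It was found mainly in smooth muscle-like nuclei, with 74.1% of its DNp63cKO and 67.0% of its control UMIs in a class that held 31.0% and 22.9% of all UMIs. It stood there at 60.0 CPM in DNp63cKO (169 UMIs; 51.3 to 69.7) and 39.2 CPM in control (128 UMIs; 32.7 to 46.6). The log2 ratio was 0.56 (0.27 to 0.96), past the fold used. Among 11 alternatives the ratio ran from 0.16 to 1.06 and was past the fold in 9. It was not past it with 20 CPM added (0.43) and in nuclei that had UMIs of Y-linked genes and none of Xist (0.16). Such nuclei made up 10.6% of smooth muscle-like nuclei in DNp63cKO and 8.47% in control. The shares were 15.0% and 10.9% in urothelium-like nuclei and 12.7% and 5.55% in fibroblast-like nuclei. The pools may thus differ in their makeup of male and female mice, and the part of sex in any ratio was not tested.

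The 3 smooth muscle-like clusters had Rspo3 ratios of 0.06 to 0.62, all above 0. In cluster 4, led by Acta2, Tagln and Cnn1, contractile genes, it had 44.3 CPM in DNp63cKO, against 27.1 CPM in control (65 and 56 UMIs). The leading genes of cluster 4 also hold Hbb-bs and Hba-a1, haemoglobin genes of blood cells. Cluster 7, led by Cpa6, Ryr3 and Dmd, had the highest level in both libraries and the smallest difference, at 90.3 and 86.5 CPM (64 and 40 UMIs). Cluster 7 held 488 DNp63cKO and 399 control nuclei, while clusters 3 and 4 held more control than DNp63cKO nuclei, with 551 and 796 nuclei in cluster 3 and 448 and 706 in cluster 4.

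In fibroblast-like nuclei Rspo3 had 17.4 CPM in DNp63cKO, against 23.2 CPM in control (22 and 21 UMIs, log2 -0.33, interval -1.34 to 0.53). In urothelium-like nuclei it was at 6.09 and 3.09 CPM (26 and 29 UMIs). A Rspo3 UMI was seen in 4.98% of thinned DNp63cKO smooth muscle-like nuclei (3.83 to 6.36%) and 2.35% of control ones (1.61 to 3.30%; unthinned 8.88% and 5.31%), against 0.289% and 0.140% of urothelium-like nuclei.

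Lgr5 (ENSMUSG00000020140; chromosome 10, 115450311 to 115587780, minus strand) was too low to compare. It had 29 UMIs in the whole DNp63cKO library and 18 in control, with 8 and 7 in smooth muscle-like, 6 and 1 in fibroblast-like and 4 and 6 in urothelium-like nuclei. Endothelium-like nuclei had 0 UMIs in both libraries, and the exact upper limit was 1.79% of 204 DNp63cKO and 1.58% of 232 control thinned nuclei with a UMI (1.47% and 1.29% for a floor of 3 nuclei).

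Lef1 (ENSMUSG00000027985; chromosome 3, 131110471 to 131224356, plus strand), a TCF/LEF factor that is itself a WNT target, was found mainly in smooth muscle-like nuclei, with 76.3% of its DNp63cKO and 64.5% of its control UMIs. It stood at 36.5 CPM in DNp63cKO (103 UMIs; 29.8 to 44.3) and 24.5 CPM in control (80 UMIs; 19.4 to 30.5). The log2 ratio of 0.493 (0.14 to 1.02) fell just under the fold used and was past it in 5 of 11 alternatives, which ran from 0.17 to 0.63. All 3 clusters were higher in DNp63cKO, with ratios of 0.16, 0.57 and 0.77 in clusters 3, 4 and 7, and the lowest rests on 24 UMIs in each library.

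Lef1 in urothelium-like nuclei was low and alike, at 3.05 CPM in DNp63cKO, against 3.09 CPM in control (13 and 29 UMIs). Endothelium-like nuclei had 6 and 9 UMIs and fibroblast-like nuclei 7 and 5.

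Tcf7 (ENSMUSG00000000782; chromosome 11, 52252371 to 52283014, minus strand), a factor of the same family, had 17.4 CPM in DNp63cKO, against 17.5 CPM in control smooth muscle-like nuclei (49 and 57 UMIs, log2 -0.01, interval -0.59 to 0.57). In urothelium-like nuclei it was at 6.09 and 8.41 CPM (26 and 79 UMIs, log2 -0.27, interval -1.16 to 0.19). Fibroblast-like nuclei had 12 DNp63cKO UMIs and 1 control UMI, too few to count.

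Tcf7l2 (ENSMUSG00000024985; chromosome 19, 55741820 to 55933654, plus strand), the family member best known from gut epithelium, was found in every class and was the least tied to 1 side. It had 127 CPM in DNp63cKO, against 115 CPM in control urothelium-like nuclei (log2 0.14, interval -0.01 to 0.29). Smooth muscle-like nuclei had 109 and 97.4 CPM (log2 0.16) and fibroblast-like nuclei 217 and 212 CPM (log2 0.04). In endothelium-like nuclei it stood at 240 CPM in DNp63cKO (88 UMIs; 193 to 296) and 156 CPM in control (76 UMIs; 123 to 195) and was called higher, at a log2 ratio of 0.61 (0.16 to 1.08).

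Endothelium-like nuclei had 4 of the 10 genes counted, with Tcf7l2 and Wnt7b higher and Wnt5a lower, against 12.9% of counted genes called higher and 13.8% called lower. Wnt7b there rests on 17 DNp63cKO and 15 control UMIs. Its ratio of 0.52 has an interval from -0.50 to 1.70. In pericyte-like nuclei Tcf7l2 alone had 20 or more UMIs, at 225 CPM in DNp63cKO, against 202 CPM in control (24 and 16 UMIs).

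Axin2 (ENSMUSG00000000142; chromosome 11, 108920349 to 108950783, plus strand), the scaffold of the complex that destroys β-catenin and a widely used readout of WNT response, stood at 20.6 CPM in DNp63cKO (58 UMIs; 15.6 to 26.6), against 12.9 CPM in control smooth muscle-like nuclei (42 UMIs; 9.28 to 17.4). The log2 ratio was 0.52 (0.08 to 1.29), past the fold used, although the intervals of the levels overlap. Among 11 alternatives it ran from 0.30 to 1.02 and was past the fold in 8, but not with 20 CPM added (0.30), under median-of-ratios scaling (0.48) or after thinning (0.48). The 8 include the nuclei with Y-linked and no Xist UMIs, where no member was both counted and called higher. Ratios were 0.33 and 1.0 in clusters 4 and 7, and cluster 3, with 10 and 9 UMIs, had too few to count. Cluster 7 had 31.0 CPM in DNp63cKO and 13.0 CPM in control, from 22 and 6 UMIs.

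In urothelium-like nuclei Axin2 had 15 UMIs in each library, or 3.51 CPM in DNp63cKO and 1.60 CPM in control. Fibroblast-like nuclei had 10 and 3 UMIs. With thinning, an Axin2 UMI was seen in 1.47% of DNp63cKO and 0.955% of control smooth muscle-like nuclei, with intervals of 0.874 to 2.31% and 0.510 to 1.63%, so the share of nuclei did not differ beyond counting error at this depth.

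Nkd1 (ENSMUSG00000031661; chromosome 8, 88521354 to 88594884, plus strand), which binds Dishevelled and damps the WNT signal, had 78.6% of its DNp63cKO and 77.2% of its control UMIs in smooth muscle-like nuclei. It had 116 CPM in DNp63cKO, against 99.6 CPM in control (326 and 325 UMIs), a log2 ratio of 0.21 (-0.01 to 0.44) that was not called. Among 11 alternatives it ran from -0.80 to 0.33, with values below 0 under the stricter nucleus filter (-0.02) and in nuclei with Y-linked and no Xist UMIs (-0.80). It was higher in cluster 4 (145 and 107 CPM; log2 0.41, interval 0.15 to 0.71) and did not differ beyond counting error in cluster 3 (68.5 and 72.5 CPM) or cluster 7 (98.8 and 108 CPM). Fibroblast-like nuclei had 33.3 and 23.2 CPM (42 and 21 UMIs, log2 0.44, interval -0.27 to 1.35).

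**Figure D4:**
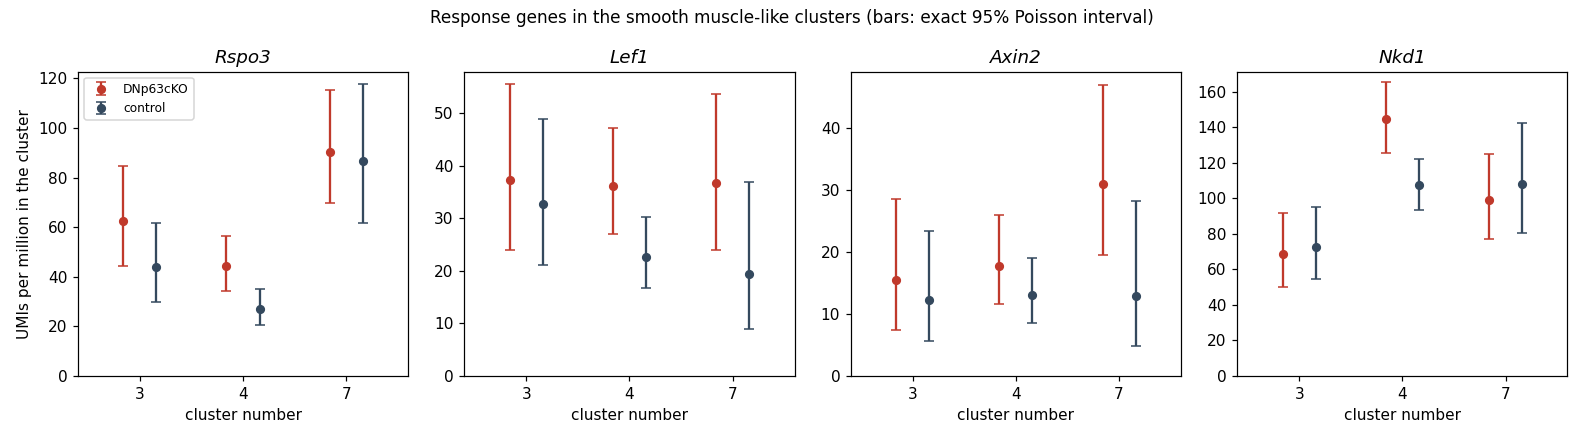
Level of Rspo3, Lef1, Axin2 and Nkd1 (CPM in the cluster) in the 3 smooth muscle-like clusters, DNp63cKO in red left of control in dark blue, with exact 95% Poisson intervals. Rspo3 and Lef1 were higher in DNp63cKO in all 3 clusters and Axin2 in the 2 with 20 or more UMIs, with overlapping intervals in most, and Nkd1 was higher in cluster 4 only.

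The estimated share of free RNA in smooth muscle-like nuclei, from the uroplakins, was 35.9% in DNp63cKO and 24.3% in control, and in fibroblast-like nuclei it was 41.0% and 28.0%. After this share of the library profile was subtracted, the smooth muscle-like log2 ratios were 0.69 for Rspo3, 0.63 for Lef1, 0.61 for Axin2 and 0.33 for Nkd1. These values rest on the uroplakins alone, which stood at 21.3% and 17.6% of their urothelial level in smooth muscle-like nuclei. Shh had the opposite order of the libraries, at 19.96% and 35.8%, so another epithelial gene could give another estimate. Shh was itself called lower in DNp63cKO urothelium-like nuclei, as given above.

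**Figure D5:**
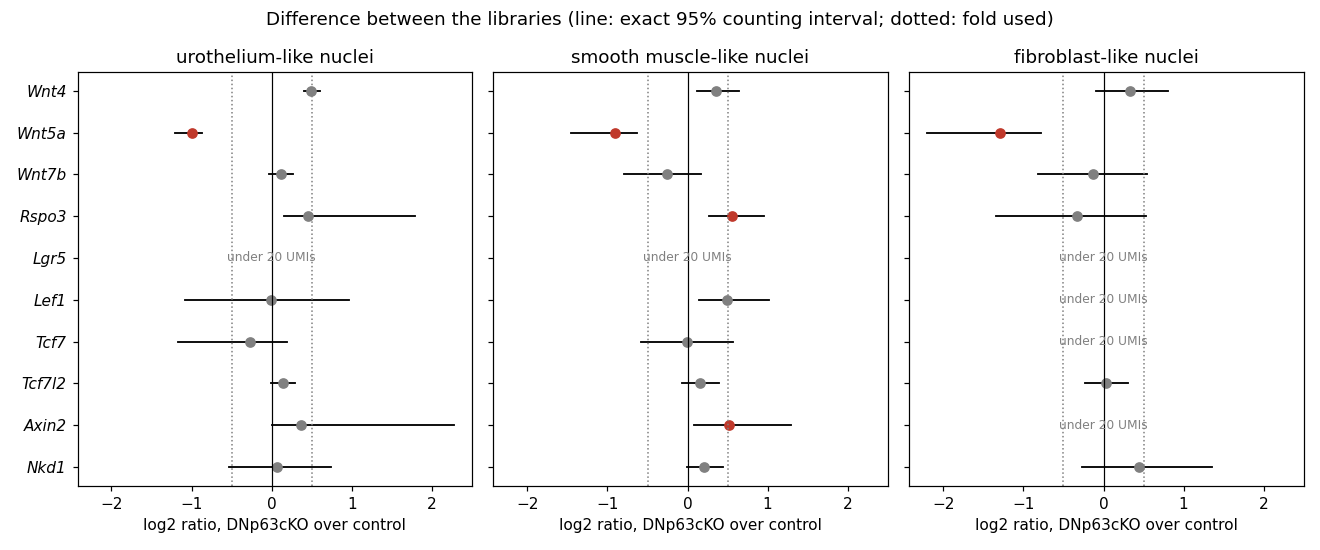
Log2 ratio of DNp63cKO over control (CPM + 5) for each gene in 3 classes; lines are exact 95% counting intervals without the added 5 CPM, dotted lines the fold of 0.5, red points past it and grey points not. Wnt5a lies at -0.99, -0.91 and -1.29 in the 3 classes, and Rspo3 and Axin2 lie at 0.56 and 0.52 in smooth muscle-like nuclei.

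Set side by side, the 3 ligands were higher in the epithelium in both libraries, and Rspo3, Lef1, Axin2 and Nkd1 were higher in the mesenchyme. The members were chosen to set these sides apart, so the split follows in part from the choice. Ligands outside the set went both ways. Wnt5b had 64.2 and 88.2 CPM in fibroblast-like nuclei, against 10.8 and 5.96 CPM in urothelium-like nuclei. Wnt10a had 3.17 and 1.10 CPM, against 10.8 and 9.04 CPM. Feedback and target genes outside the set went both ways too. Nkd2 had 133 and 107 CPM in smooth muscle-like nuclei, against 12.9 and 7.98 CPM in urothelium-like nuclei. Ephb3 had 17.7 and 22.1 CPM, against 39.8 and 44.8 CPM. Over smooth muscle-like and fibroblast-like nuclei together, Wnt4 was 3.34 times as high in urothelium-like nuclei in DNp63cKO and 3.05 times in control. The same ratio was 3.33 and 3.06 for Wnt5a and 4.80 and 3.84 for Wnt7b. Uroplakin UMIs were found in the mesenchyme too, and the part of free RNA in these ratios was not tested. On the response side the urothelial level was 0.130 and 0.0864 times the mesenchymal one for Rspo3, 0.113 and 0.151 times for Lef1, 0.211 and 0.148 times for Axin2 and 0.0857 and 0.0859 times for Nkd1. Tcf7 stood at 0.408 and 0.604 times and Tcf7l2 at 0.894 and 0.943 times. By class these 2 were split. Tcf7l2 had 127 and 115 CPM in urothelium-like nuclei, above the 109 and 97.4 CPM of smooth muscle-like nuclei. Control Tcf7 had 8.41 CPM in urothelium-like and 1.10 CPM in fibroblast-like nuclei, the latter from 1 UMI. Most mesenchymal UMIs of Rspo3, Lef1, Axin2 and Nkd1 came from smooth muscle-like nuclei. In fibroblast-like nuclei alone Lef1 had 5.55 and 5.51 CPM (7 and 5 UMIs), against 3.05 and 3.09 CPM in urothelium-like nuclei. Axin2 had 7.92 and 3.31 CPM there (10 and 3 UMIs), against 3.51 and 1.60 CPM.

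Values of whole libraries mixed these levels with the makeup of each library. Summed over all nuclei, Nkd1 had 45.7 CPM in DNp63cKO, against 29.5 CPM in control, a log2 ratio of 0.56, against 0.21 within smooth muscle-like nuclei. Axin2 was at 10.02 and 4.41 CPM (log2 0.67), Lef1 at 14.9 and 8.69 CPM (log2 0.54) and Rspo3 at 25.1 and 13.4 CPM (log2 0.71). Smooth muscle-like nuclei held 31.0% of DNp63cKO and 22.9% of control UMIs, and fibroblast-like nuclei 13.9% and 6.35%.

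Across 26 profiles of a cluster in a library, the Pearson correlation of log2(CPM + 5) was 0.79 between Wnt4 and Wnt7b, 0.89 between Rspo3 and Nkd1 and 0.895 between Lef1 and Axin2, and it was -0.69 between Wnt7b and Rspo3. These profiles share 2 libraries and their free RNA, and several come from 1 class, so the values describe and carry no p. Among 9169 genes, those most like Wnt5a were Fat2, Perp and Ripk4 (r of 0.92, 0.92 and 0.90), and those most like Wnt4 were Abcc3, Foxa1 and Junb (0.93, 0.92 and 0.92). Lsr and Fam83h led for Wnt7b (0.92 and 0.91). Smtn, Nt5e and Sulf1 led for Rspo3 (0.92 each), Lmod1, Cnn1 and Dact3 for Nkd1 (each 0.94), Gnai1, Psd and Gja1 for Lef1 (0.92, 0.90 and 0.87), and Dpp6, Dctn6 and Tnnt1 for Axin2 (0.86, 0.86 and 0.85). Values were lower for Tcf7l2 (Ptk2, 0.85) and Tcf7 (Mis18a, 0.73).

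Lef1, Axin2 and Nkd1 had levels that moved together over these profiles, and the sequence before their RefSeq starts is shown for that reason. Beside the 0.895 of Lef1 and Axin2, the correlation with Nkd1 was 0.70 for Lef1 and 0.74 for Axin2. Rspo3 was as close to them, at 0.89 with Nkd1, 0.76 with Lef1 and 0.75 with Axin2. RefSeq promoter entries on GRCm38.p6, the assembly of mm10, were found for 6 of the 10 genes, Wnt4, Lef1, Tcf7, Tcf7l2, Axin2 and Nkd1. Wnt5a, Wnt7b, Rspo3 and Lgr5 had none. The 250 bases before the RefSeq start are printed 5′ to 3′ on the strand of the gene, for Lef1 at chr3:131110047-131110296, for Axin2 at chr11:108920099-108920348 and for Nkd1 at chr8:88527383-88527632, all on the plus strand. The Nkd1 window lies inside the gene as placed by GENCODE, since its RefSeq start is downstream of the GENCODE start given above, and that of Wnt4 crosses the GENCODE start. RefSeq lists 4 starts for Lef1 and 2 each for Tcf7 and Tcf7l2, and the window of only 1 start per gene was searched. Such a window can lie in sequence transcribed from another start.
Lef1: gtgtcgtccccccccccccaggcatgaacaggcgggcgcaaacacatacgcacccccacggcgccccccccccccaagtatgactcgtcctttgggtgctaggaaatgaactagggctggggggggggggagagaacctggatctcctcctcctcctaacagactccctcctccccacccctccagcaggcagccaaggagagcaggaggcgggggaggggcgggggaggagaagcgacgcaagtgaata
Axin2: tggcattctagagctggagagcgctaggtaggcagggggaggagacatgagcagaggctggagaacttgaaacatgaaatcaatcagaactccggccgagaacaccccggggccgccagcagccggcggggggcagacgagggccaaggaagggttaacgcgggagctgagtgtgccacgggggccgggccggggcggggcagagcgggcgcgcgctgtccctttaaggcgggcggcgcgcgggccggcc
Nkd1: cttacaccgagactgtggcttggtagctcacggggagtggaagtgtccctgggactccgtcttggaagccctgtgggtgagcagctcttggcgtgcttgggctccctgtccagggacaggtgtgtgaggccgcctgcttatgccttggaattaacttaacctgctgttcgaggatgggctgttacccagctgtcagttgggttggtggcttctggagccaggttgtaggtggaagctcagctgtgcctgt
The core that TCF/LEF factors are known to bind was searched on both strands in 4 forms, and a match would stand in capitals. None was found in these windows of the 6 genes. Of 27025 RefSeq windows of the same length, 4.64% hold the form CTTTGAA on either strand, 3.23% hold CTTTGAT, another 3.12% hold CTTTGTA, and 4.99% hold CTTTGTT, with 14.9% holding any of them. The forms differ in their last 2 letters, so only 1 of them can match at a position on a strand. The missing match says only that these letters are not in this window.

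Of 99 other WNT pathway genes in 7 lists, 75 were counted in urothelium-like nuclei, of which 5 were called higher and 4 lower, shares near the 5.16% and 4.15% of all counted genes. The median log2 ratio of the 75 was -0.01, beside 0.01 for all counted genes. The urothelial values of these genes, here and below, are pooled over clusters that the libraries filled differently. The part of cluster makeup in their differences was not tested. Ctnnb1, which encodes β-catenin, was lower at 629 CPM in DNp63cKO, against 950 CPM in control (log2 -0.59), and it was lower too in smooth muscle-like nuclei, at 405 and 633 CPM (log2 -0.64). Fibroblast-like nuclei had 237 and 332 CPM (log2 -0.48), not called. Ctnnb1 was also lower in endothelium-like nuclei, at 437 and 756 CPM (160 and 368 UMIs), and in pericyte-like nuclei, at 299 and 481 CPM (32 and 38 UMIs). Its difference was thus not particular to the epithelium or smooth muscle. Apcdd1, a membrane inhibitor of WNT signals, had the largest difference of the lists in urothelium-like nuclei, at 5.16 CPM in DNp63cKO, against 22.9 CPM in control (22 and 215 UMIs, log2 -1.46).

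Among urothelial genes called higher were Sfrp2, a secreted inhibitor, at 58.8 CPM in DNp63cKO, against 32.5 CPM in control, and Ror1, a receptor for Wnt5a, at 26.0 and 15.2 CPM. Both were higher still in mesenchymal classes, with Sfrp2 at 666 and 537 CPM and Ror1 at 287 and 208 CPM in smooth muscle-like nuclei. The ligand Wnt5b (10.8 and 5.96 CPM) and the growth genes Myc (68.2 and 41.6 CPM) and Ccnd1 (38.0 and 24.0 CPM), known WNT targets, were the other 3. In both libraries their levels were also above the urothelial ones in a mesenchymal class, with Ccnd1 at 214 CPM in DNp63cKO, against 230 CPM in control, and Myc at 96.5 and 85.8 CPM in smooth muscle-like nuclei, and Wnt5b at 64.2 and 88.2 CPM in fibroblast-like nuclei. The part of free RNA in the urothelial difference of all 5 was not tested. Ephb2 and Bambi, both known WNT targets, were called lower, at 23.9 and 41.4 CPM and at 34.7 and 53.0 CPM. Wls, which carries WNT ligands to the cell surface, had 391 CPM in DNp63cKO, against 389 CPM in control.

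In smooth muscle-like nuclei 69 of these genes were counted, with 1 higher and 6 lower, against 4.58% of all counted genes in each direction, and a median log2 ratio of -0.02. Tle2, a co-repressor of TCF/LEF factors, was higher at 46.8 CPM in DNp63cKO, against 31.3 CPM in control. The receptor Fzd6 (26.6 and 44.7 CPM), the co-receptor Lrp5 (33.0 and 52.4 CPM), the secreted inhibitor Sfrp1 (28.4 and 45.7 CPM) and the β-catenin partner Bcl9l (68.8 and 102 CPM) were among the lower. None of the 16 counted feedback and target genes outside the set of 10 was called there, and their median was 0.12. Nkd2, the relative of Nkd1, had 133 CPM in DNp63cKO, against 107 CPM in control (log2 0.30), and Notum, a secreted enzyme that inactivates WNT ligands, had 27.7 and 29.1 CPM.

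In fibroblast-like nuclei 69 were counted, with 4 higher and 3 lower, no more than the 8.68% and 6.93% of all counted genes there, and a median log2 ratio of -0.11, beside 0.01. Wnt2, a ligand of mesenchyme, was lower at 16.6 CPM in DNp63cKO, against 35.3 CPM in control (21 and 32 UMIs, log2 -0.90). Nkd2 was higher at 30.9 and 14.3 CPM (39 and 13 UMIs, log2 0.89). Among other ligands, Wnt9b, known from the nephric duct, had 13 DNp63cKO and 12 control UMIs in urothelium-like nuclei, and Wnt6 had 59 and 159.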

How the data were processed

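The authors deposited raw UMI counts, in whole numbers for each gene in each nucleus. Per the submitters' processing notes, mm10 was the genome build, and STARsolo, STAR 2.7.11a, R 4.0.5 and Seurat 4.0.5 were among the tools. The sources used here do not give the annotation or say whether introns were counted. Of 32589 gene IDs, 32522 were found in GENCODE M21, which gave the coordinates.

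A filter of at least 300 genes and no more than 5% mitochondrial UMIs left 5491 DNp63cKO nuclei of 5528 and 8889 control nuclei of 9062. The automatic threshold of Scrublet marked 0 nuclei and so had not worked, and the top 5% by score, 303 and 451 nuclei with ties, were removed. Leiden clustering (scanpy 1.11.5, leidenalg 0.10.2) used 2000 variable genes without any WNT gene, 30 components, 15 neighbours and resolution 1.0, with no integration of the libraries. Clusters were named from listed markers by a score of 0.5 or more, against the lower quartile over clusters, with 3 or more markers at 50 CPM. That rule was set after the data were seen. A first rule against all other nuclei had called urothelium-like clusters 1, 2, 5 and 11 collecting duct and smooth muscle-like cluster 4 erythroid, and had left 6 and 8 unnamed.

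Counts were summed per class and library. Poisson, conditional binomial and Clopper-Pearson intervals are exact at 95%. With 1 library a group no test was run. Shares of nuclei with a UMI were taken after thinning to 700 UMIs. Urothelium-like nuclei were taken as the class lacking Rspo3 and Wnt5a, but they had the highest Wnt5a share, so endothelium-like shares are given for Wnt5a. Free RNA was estimated from foreign marker genes, the uroplakins outside the epithelium. All 10 members are named, with up to 4 genes of each pathway list by size and 3 by level in a class, and the 3 genes most alike to each member with 100 or more UMIs. The members and lists were chosen with earlier results of these data known. The ratios and intervals were tested on simulated counts.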

Additional observations from a re-analysis of the deposited data

How the results depend on the processing

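Each group has 1 library, so no replicate could be left out. No paired analysis was possible because each group has 1 library. Under 12 alternatives, 273 log2 ratios of the members were recomputed. Of these 243 moved by less than their counting interval and 30 moved more, and 0 of the ratios past the fold changed sign. Of 74 recomputed counts of members past the fold, 52 stayed within 1.5 times. The others follow, and the cause of each was not tested unless the setting shows it. In urothelium-like nuclei 0 members were higher in the reported analysis, against 2 at resolution 0.5, 2 with no doublets removed, 3 with 1 CPM added, 1 with free RNA subtracted, 1 after thinning to 700 UMIs and 2 in nuclei that had Y-linked UMIs and none of Xist (the Y-linked nuclei). The lower count of 1 was 2 as a mean over nuclei and 2 after thinning. In smooth muscle-like nuclei 2 were higher, against 0 with 20 CPM added, 1 under median-of-ratios scaling and 0 in the Y-linked nuclei, of which there were 158 in DNp63cKO and 161 in control. The lower count of 1 was 2 at resolution 0.5, with no doublets removed, under a filter of 500 genes and 2% mitochondrial UMIs, and with free RNA subtracted. In fibroblast-like nuclei 0 were higher, against 1 with WNT genes kept for clustering, 1 under the stricter filter, 1 with 1 CPM added, 1 as a mean over nuclei and 3 with no minimum of UMIs. The lower count of 1 was 4 with free RNA subtracted and 0 in the Y-linked nuclei. Median-of-ratios scaling moved all ratios of a class by 0.05 or less. Depth limits Lgr5 everywhere, and Lef1, Tcf7 and Axin2 outside smooth muscle-like nuclei, where each library had 79 or fewer UMIs of the gene in a class.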

Other observations

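Classes with fewer than 50 nuclei in a library were left out of the comparisons, and a few members had UMIs there. Lgr5, the R-spondin receptor, had 11 of its 29 DNp63cKO UMIs in 34 neuron-like nuclei, from 6 nuclei, at 185 CPM (interval 92.6 to 332). The 25 control neuron-like nuclei had 0 Lgr5 UMIs, with an exact upper limit of 108 CPM (88.1 CPM for a floor of 3 UMIs), so the intervals of the libraries overlap. In macrophage-like nuclei Lgr5 had 0 UMIs in DNp63cKO and 3 in control, all in 1 nucleus.

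Wnt4 had 13 UMIs in 36 DNp63cKO glia-like nuclei, at 316 CPM (168 to 541), and 1 UMI in 36 control ones. Neuron-like nuclei had 12 Wnt4 UMIs in DNp63cKO, at 202 CPM, and 3 in control, at 88.1 CPM. These counts were chosen after their values were seen, come from few nuclei of 1 pool each and were not compared by a test.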
